A study of Prunus avium with 18 samples.

Results

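This is an account of 8 genes of glycosyl hydrolase family 17 (GH17) in flower buds of sweet cherry (Prunus avium), followed gene by gene for the date of their winter decline, its depth and the date of return. The genes are GH17_3 (PAV08g0392491), GH17_5 (PAV08g0377661), GH17_9 (PAV07g0353161), GH17_19 (PAV06g0263241), GH17_21 (PAV05g0233511), GH17_25 (PAV04g0216711), GH17_28 (PAV04g0186481) and GH17_30 (PAV03g0169861). They were chosen by their measured levels, as GH17 genes that were low in winter, with no numerical threshold, so their lower winter levels against October 17 or March 12 are described here with no test. They are 8 of 42 GH17 genes in the candidate table of the study and 8 of 48133 genes counted, and all 8 passed the filter on low counts that left 26248 genes. The buds came from 'Fertard', a late flowering cultivar with a high chilling requirement, and were sampled at 6 dates with 3 replicates each, every replicate being independent buds from another tree. The study describes a course from the onset of dormancy in October through endodormancy, when a bud cannot grow even in the warmth, to ecodormancy, when cool weather holds growth back. The 4 dates from December 8 to February 12 are treated here as endodormancy. The March 12 buds are named by their date, because by the study's own forcing test the trees left dormancy later in March of that season. All groups are untreated buds of this single cultivar and of a single winter, and whole buds were extracted, so fewer cells of a type and less RNA per cell cannot be told apart. The labels of the December libraries carry another day and year (17 December 2012) than the design text, whose date of December 8 is used.

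GH17 enzymes are β-1,3-glucanases, which cut callose, a glucan that plants lay down in the cell wall around plasmodesmata, the channels that join neighbouring plant cells. Callose synthases make the polymer and GH17 enzymes remove it, and the balance between them sets how open the channels are. Plasmodesmata callose-binding proteins (PDCB) bind callose at the channel neck, and plasmodesmata-located proteins (PDLP) are membrane proteins of the channel. In dormant buds of other trees callose closes these channels for the winter, and glucanases have been linked to their reopening. The table describes 7 of the 8 genes simply as family members, and GH17_21 as carrying an X8 domain, a carbohydrate-binding domain that can hold callose.

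The libraries held 10095600 to 21023379 counted reads, with 2.41% to 7.97% of them in the top 10 genes of a library. Levels are given as CPM, the counts of a gene scaled to a common library size with TMM factors, which suits comparison of a gene between dates and not of a gene with another, since transcript length is not taken into account. No pair of replicates agreed within sampling noise (chi-square per degree of freedom 1.81 to 21.5), so all 18 libraries were used as separate samples. The study's mapping table shows the lowest shares of uniquely mapped reads in replicate 1 of December 8, replicate 2 of January 3 and replicate 2 of February 12, and calls that are lost without them are given beside the result.

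The 8 genes did not enter or leave their winter low together. Already on December 8, 52 days after the first sampling, all 3 libraries lay below all 3 October libraries for GH17_5, GH17_9, GH17_21, GH17_25, GH17_28 and GH17_30, which is 6 of 8 genes where 31.0% of all genes tested did so. GH17_3 was the opposite, with all December libraries above October (1 of 8 genes, 25.0% of all genes tested). On January 3 all 8 genes lay below October (29.2% of all genes), and on January 15 again all 8 (29.1%). By February 12 there were 5 below (30.1% of all genes) and GH17_3 stood above (1 of 8, 29.3%). On March 12 all libraries lay above October for 7 of 8 genes (33.3% of all genes), the exception being GH17_21. These counts below October follow from how the genes were chosen, and nothing is read from them against the background. Measured against October 17 alone, all 8 genes were thus low on both January dates, 6 on December 8 and 5 on February 12. Against March 12 the picture differs. There GH17_3, above October on December 8 and February 12, had 67.9 CPM, against 31.5 and 29.9 CPM on those 2 dates.

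**Figure D1:**
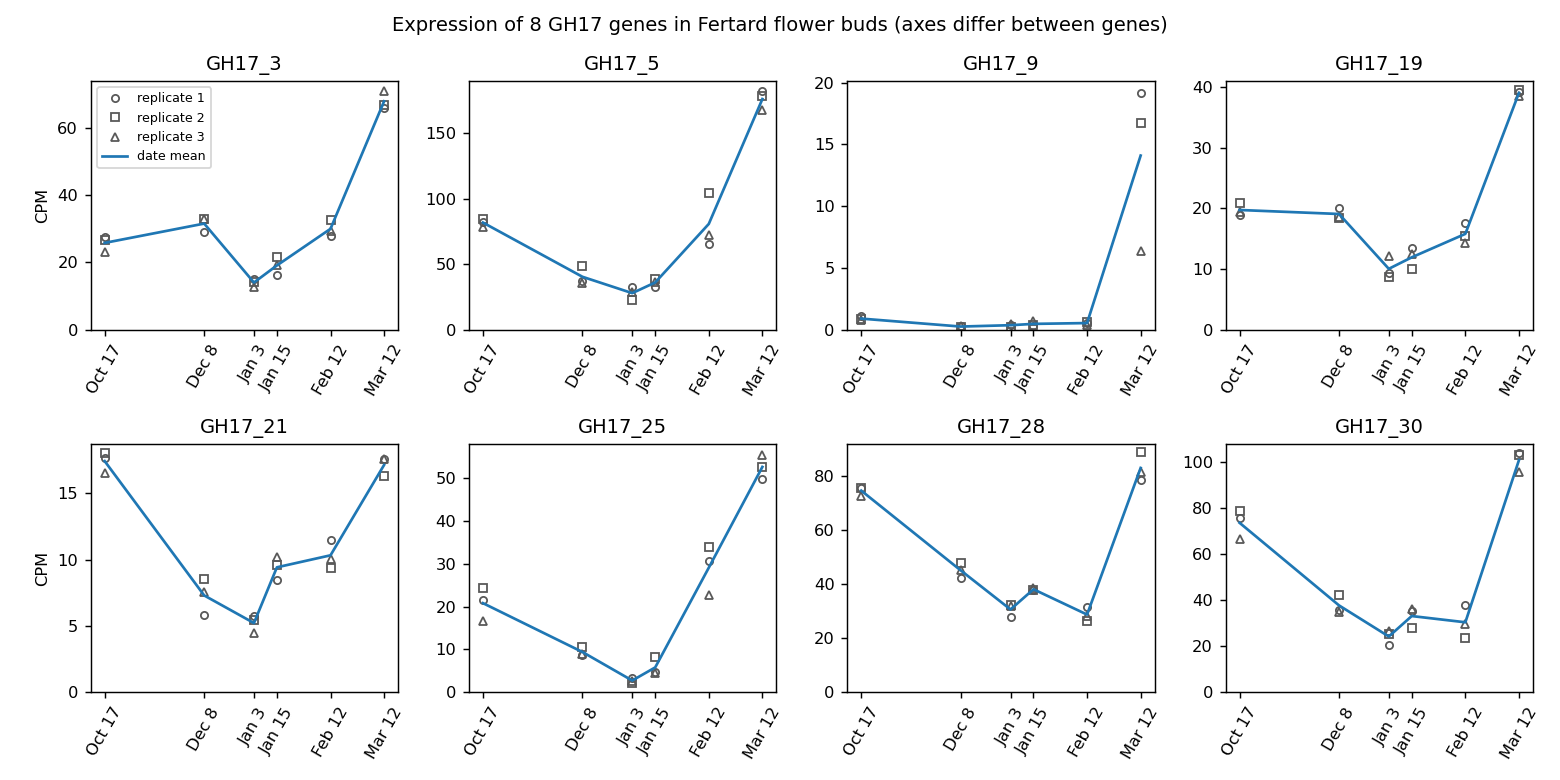
Level of each of the 8 genes in CPM (vertical axes start at 0 and differ between genes) against sampling date, with 1 symbol per library and a line through the date means. GH17_3 and GH17_19 drop only at January 3, GH17_28 and GH17_30 are still low on February 12, and GH17_9 is near 0 until March 12.

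GH17_25 had the deepest decline and an early return. Its 3 October libraries held 21.5, 24.4 and 16.6 CPM, and those of December 8 held 8.62, 10.7 and 8.93 CPM. The January 3 libraries held 3.37, 2.14 and 2.71 CPM, and those of January 15 held 4.67, 8.29 and 4.45 CPM. The level was 30.7, 34.1 and 22.7 CPM in the February 12 libraries, then 49.9, 52.8 and 55.5 CPM in the March 12 ones. The January 3 mean was 13.1% of the October mean, a 7.61-fold lower level, and no library of either January date reached any library of December 8 or October 17. On February 12 the mean was 140% of that of October, although the lowest February library lay inside the October range, and it was 10.6 times the January 3 mean. Of the 8 genes, GH17_25 and GH17_3 were the only ones with a February mean above the October mean.

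GH17_5 followed the same course at a shallower depth. The October libraries had 82.1, 84.3 and 78.6 CPM, and those of December 8 had 37.1, 48.4 and 35.4 CPM. The January 3 libraries had 32.3, 22.5 and 28.5 CPM, and those of January 15 had 32.8, 38.9 and 36.0 CPM. The February 12 libraries had 65.0, 104.3 and 72.5 CPM, and those of March 12 had 182, 179 and 167 CPM. The level was at 49.3% of October by December 8 and lowest on January 3, at 34.0%. The February mean was 98.7% of October, but 1 library, replicate 2, stood above October while the other two stood below, and the February coefficient of variation was 25.9% against 3.47% in October. The 2 genes had profiles close to each other over the 18 libraries (Pearson r = 0.96 of log2(CPM + 1), a description over libraries that share dates).

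GH17_28 and GH17_30 declined by December 8 as well and were still low on February 12, when GH17_5 and GH17_25 were back near or above their October level. GH17_28 had 75.5, 75.7 and 72.6 CPM on October 17, 42.4, 47.8 and 45.1 CPM on December 8, and 27.9, 32.3 and 31.8 CPM on January 3. It had 37.9, 38.0 and 38.4 CPM on January 15, 31.5, 26.5 and 28.2 CPM on February 12, and 78.6, 88.8 and 81.5 CPM on March 12. The January 3 and February 12 libraries overlapped, at 41.1% and 38.5% of the October mean, with the January 15 libraries above both. The lowest date thus is February 12 by a small margin, and it becomes January 3 when the 3 libraries with the lowest mapped shares are left out.

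GH17_30 had 75.4, 78.6 and 66.7 CPM on October 17, 35.9, 42.2 and 35.0 CPM on December 8, and 20.7, 25.4 and 26.5 CPM on January 3. It had 35.4, 27.7 and 36.1 CPM on January 15, 38.0, 23.6 and 29.6 CPM on February 12, and 103.7, 102.8 and 95.7 CPM on March 12. Its mean was lowest on January 3, at 32.9% of October, and the January 15 and February 12 libraries overlapped. On February 12 it was still at 41.3% of October, and the March 12 mean was 3.32 times the February mean. GH17_28 and GH17_30 had the most alike profiles among the 8 genes (r = 0.96).

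GH17_21, the member with the X8 domain, declined early and came back in steps without passing its October level. It had 17.6, 18.1 and 16.6 CPM on October 17, 5.82, 8.55 and 7.52 CPM on December 8, and 5.72, 5.47 and 4.45 CPM on January 3. It had 8.45, 9.61 and 10.2 CPM on January 15, 11.5, 9.39 and 10.1 CPM on February 12, and 17.6, 16.3 and 17.6 CPM on March 12. The January 3 mean was 29.9% of October. All 3 libraries of January 15 already lay above those of January 3, the January 15 and February 12 libraries overlapped, and the February mean was 59.2% of October. The March 12 and October 17 libraries overlapped, with the March mean at 98.3% of October.

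GH17_3 and GH17_19 were not below their October level in December. GH17_3 had 27.4, 26.8 and 23.1 CPM on October 17, 28.9, 32.8 and 32.7 CPM on December 8, and 15.1, 14.1 and 12.7 CPM on January 3. It had 16.3, 21.6 and 19.3 CPM on January 15, 27.9, 32.7 and 29.3 CPM on February 12, and 65.8, 66.8 and 71.0 CPM on March 12. Its December mean was 122% of October and its January 3 mean 54.3%. It was back at 116% by February 12, where its libraries overlapped those of December 8.

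GH17_19 had 18.8, 20.9 and 19.5 CPM on October 17, 20.1, 18.5 and 18.6 CPM on December 8, and 9.29, 8.65 and 12.1 CPM on January 3. It had 13.4, 9.99 and 12.4 CPM on January 15, 17.7, 15.4 and 14.3 CPM on February 12, and 39.2, 39.5 and 38.5 CPM on March 12. The December and October libraries overlapped, and so did those of the January dates. Its lowest mean, on January 3, was 50.8% of October, so that neither GH17_19 nor GH17_3 had a date mean at or under 50% of October. For GH17_19 this depends on the setting, since the value ranged from 45.5% to 54.3% over the alternatives, against 51.6% to 56.7% for GH17_3. The February mean was 80.0% of October, still below it in every library. The profiles of the 2 genes had r = 0.92.

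GH17_9 differed from the others in that its winter values rest on few reads. Its libraries had 12, 13 and 11 counts on October 17, 4, 2 and 3 on December 8, and 6, 3 and 5 on January 3. They had 5, 8 and 8 counts on January 15, 9, 7 and 4 on February 12, and 237, 191 and 66 on March 12. The December mean of 0.24 CPM was 27.3% of the October mean of 0.89 CPM. The winter libraries overlapped from date to date, apart from December 8 with January 15 and with February 12, and no order among the winter dates is read from so few counts. On March 12 the level was 19.2, 16.7 and 6.40 CPM, 15.9 times the October mean, with replicate 3 well under the other two.

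**Figure D2:**
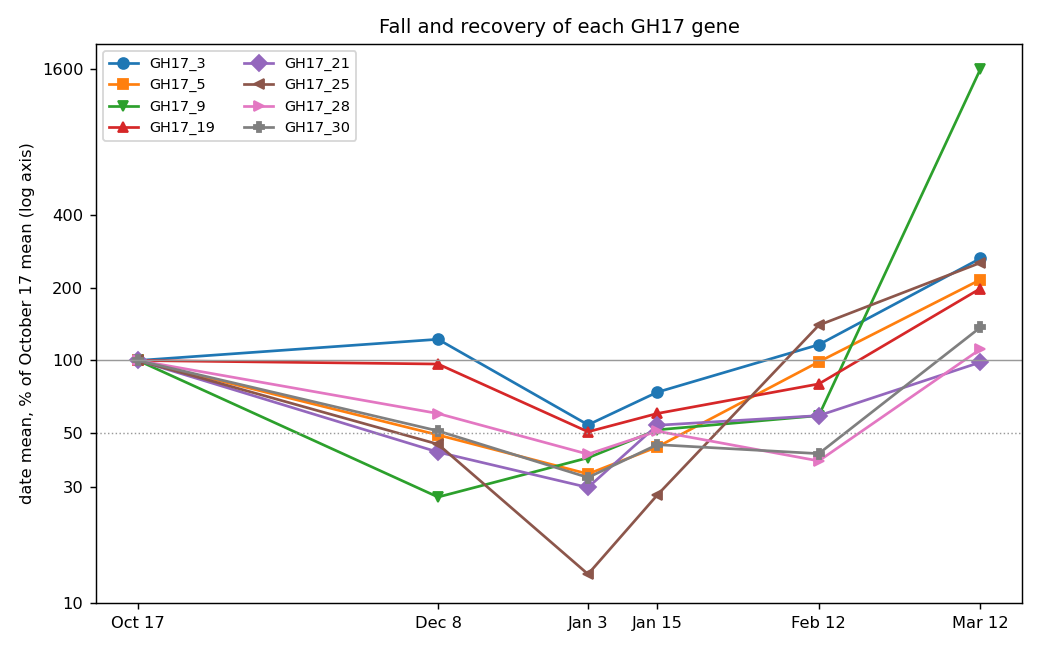
Date mean of each gene as a percent of its October 17 mean (log axis) against sampling date, with lines at 100% and 50%. GH17_25 drops to 13.1% on January 3 and is above 100% on February 12, where GH17_28 and GH17_30 remain at 38.5% and 41.3%.

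Steps between neighbouring dates within winter, and March 12 against October 17, were tested across all genes with edgeR's quasi-likelihood test. To be called, a gene needed an adjusted p (Benjamini-Hochberg) below 0.05 together with a log2 fold change beyond 1 in size, and the count at adjusted p alone is given beside it. Counts at an unadjusted p under 0.05 have no share of all genes beside them, since none was computed, and nothing is read from them. The study grouped these genes on profiles over all 6 dates of the same libraries, so the tests show where along the profile a gene moved and are not independent support for the profile.

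On January 3, 7 of 8 genes were lower than on December 8 at adjusted p alone, and 5 of them stayed so whichever library was left out. GH17_25 held 2.74 ± 0.61 CPM on January 3, against 9.41 ± 1.10 CPM on December 8 (SD, n = 3 each; log2 fold change -1.76, SE 0.25, adjusted p = 3.73e-05 by edgeR). GH17_3 held 14.0 ± 1.17 CPM on January 3, against 31.5 ± 2.21 CPM on December 8 (log2 fold change -1.17, SE 0.11, adjusted p = 4.13e-07 by edgeR). These were the 2 genes called lower, where 4.05% of all genes were. At adjusted p alone 7 genes were lower (15.6% of all genes), with GH17_19 at -0.94, GH17_30 at -0.64, GH17_28 at -0.56, GH17_5 at -0.53 and GH17_21 at -0.47 on the log2 scale. GH17_5 no longer passed without replicate 2 of December 8 (adjusted p = 0.0901) or replicate 2 of January 3 (0.0787), and GH17_21 without replicate 2 (0.112) or 3 (0.0593) of December 8 or replicate 3 of January 3 (0.0911). No gene was called higher by edgeR or DESeq2, and none was higher at an unadjusted p under 0.05 (6.33% of all genes were called higher, 21.8% at adjusted p alone). GH17_9 did not pass, at 0.51 with an SE of 0.68. The median log2 fold change was -0.60 over the 8 genes and 0.07 over all genes tested.

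On January 15, 12 days later, 5 of 8 genes were higher than on January 3. GH17_25 held 5.80 ± 2.16 CPM on January 15, against 2.74 ± 0.61 CPM on January 3 (log2 fold change 1.10, SE 0.26, adjusted p = 4.30e-03 by edgeR), and was the 1 gene called higher (2.91% of all genes). That call is lost, with log2 fold changes of 0.95 and 0.72, when replicate 2 of January 3 or replicate 2 of January 15 is left out. At adjusted p alone 5 genes were higher (11.8% of all genes), the others being GH17_21 at 0.84, GH17_3 at 0.45, GH17_30 at 0.45 and GH17_28 at 0.32 on the log2 scale. GH17_30 no longer passed without replicate 1 (adjusted p = 0.137) or 2 (0.0526) of January 3 or replicate 1 (0.0928) or 3 (0.109) of January 15. GH17_5 at 0.37, GH17_9 at 0.30 and GH17_19 at 0.25 did not pass, although GH17_5 passed without replicate 2 of February 12 (adjusted p = 0.0326) and GH17_19 without replicate 3 of January 3 (0.0387). No gene was called lower by edgeR or DESeq2, nor was any lower at an unadjusted p under 0.05 (1.49% of all genes were called lower, 13.6% at adjusted p alone). The median was 0.41 over the 8 genes and -0.02 over all genes.

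The genes parted between January 15 and February 12. GH17_25 held 29.1 ± 5.85 CPM on February 12, against 5.80 ± 2.16 CPM on January 15 (log2 fold change 2.29, SE 0.21, adjusted p = 3.00e-07 by edgeR). GH17_5 held 80.6 ± 20.9 CPM on February 12, against 35.9 ± 3.06 CPM on January 15 (log2 fold change 1.16, SE 0.15, adjusted p = 1.35e-05 by edgeR), a call that is lost at 0.93 without replicate 2 of February 12. These were the 2 genes called higher (7.10% of all genes), and GH17_3 at 0.65 and GH17_19 at 0.42 were higher at adjusted p alone, which makes 4 (20.1% of all genes). GH17_19 no longer passed without replicate 2 of January 15 (adjusted p = 0.0828) or replicate 1 of February 12 (0.0783). GH17_28 moved the other way, at 28.7 ± 2.53 CPM on February 12, against 38.1 ± 0.27 CPM on January 15 (log2 fold change -0.40, SE 0.08, adjusted p = 6.55e-04 by edgeR). It was the 1 gene lower at adjusted p alone (19.9% of all genes), while none was called lower by edgeR or DESeq2 (3.90% of all genes) and 1 was lower at an unadjusted p under 0.05. GH17_9 at 0.27, GH17_21 at 0.14 and GH17_30 at -0.11 did not pass, and the value of GH17_30 turns to 0.05 without replicate 2 of February 12. The median was 0.34 over the 8 genes and 0.01 over all genes.

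By March 12 most of the genes stood above their October level. GH17_9 held 14.1 ± 6.78 CPM on March 12, against 0.89 ± 0.19 CPM on October 17 (log2 fold change 4.01, SE 0.36, adjusted p = 4.34e-08 by edgeR). GH17_3 was at 1.40, GH17_25 at 1.34 and GH17_5 at 1.11 on the log2 scale, with adjusted p of 4.09e-09, 1.39e-05 and 5.89e-06 by edgeR. These 4 genes were called higher (13.2% of all genes), and with GH17_19 at 0.98 and GH17_30 at 0.45 there were 6 at adjusted p alone (28.4% of all genes). GH17_28 did not pass, at 0.15 with an SE of 0.08, and neither did GH17_21, at -0.02 with an SE of 0.13. No gene was called lower by edgeR or DESeq2 and none was lower at an unadjusted p under 0.05 (7.73% of all genes were called lower, 25.1% at adjusted p alone). The median was 1.05 over the 8 genes and 0.02 over all genes.

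**Figure D3:**
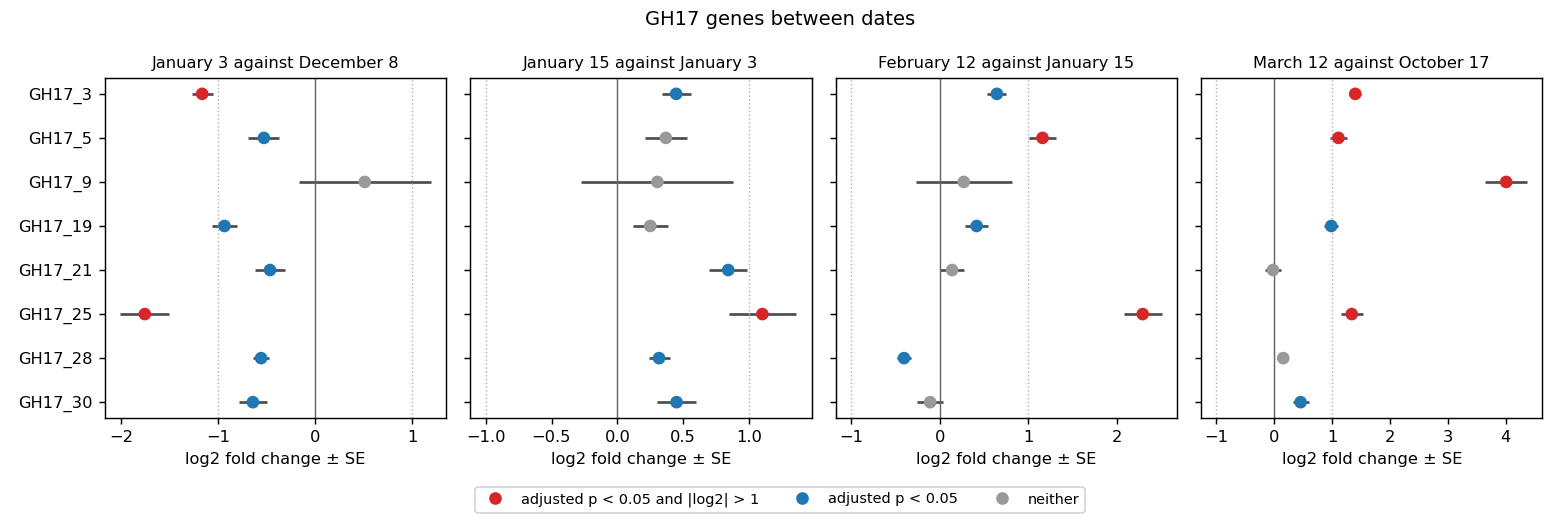
Log2 fold change with its standard error for each of the 8 genes in the 4 comparisons, with the first date named in a panel over the second and dotted lines at 1 and -1. Red points passed adjusted p and fold, blue points adjusted p alone and grey points neither, and February 12 against January 15 is the panel where GH17_25 (2.29) and GH17_28 (-0.40) lie on opposite sides of 0.

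Among themselves the 8 genes correlated positively in all 28 pairs, from r = 0.58 for GH17_25 with GH17_28 to 0.96, with a median of 0.80. The libraries share the 6 dates and the genes were picked for a like profile, so these values describe the degree of likeness only. The divergence of GH17_25 from GH17_28 shows in their count ratio within each library, of which only the change between dates can be read because it depends on both transcript lengths. Its mean was 0.28 in October, 0.21 in December, 0.09 at January 3, 0.15 at January 15, 1.02 in February and 0.64 in March (n = 3 each). The lowest February library had 0.80 GH17_25 counts per GH17_28 count, above the highest of the January and October libraries. The February libraries also differed from each other: replicate 2, which is among the 3 with the lowest mapped shares, was the highest for GH17_3, GH17_5, GH17_9 and GH17_25 and the lowest for GH17_21, GH17_28 and GH17_30. The part of this library's mapping in these values was not tested beyond leaving it out.

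**Figure D4:**
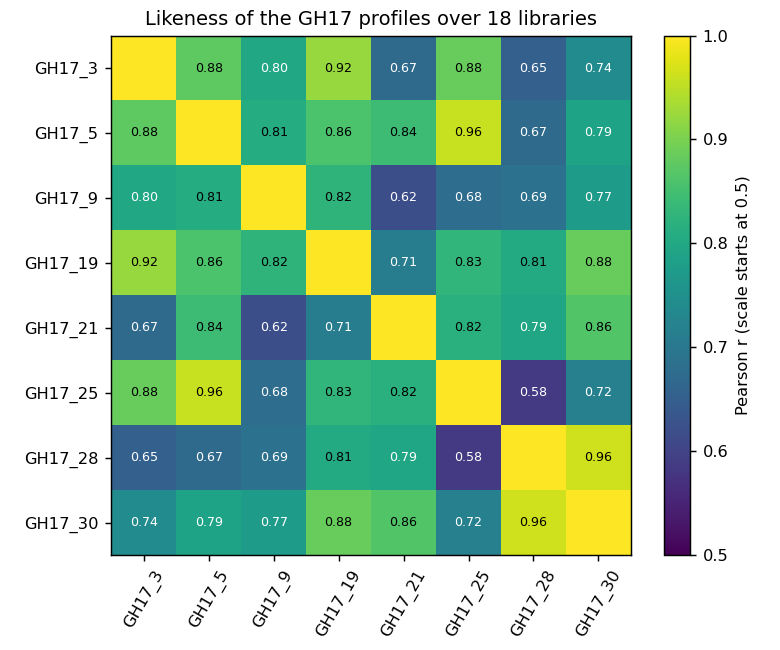
Pearson r of log2(CPM + 1) between each pair of the 8 genes over 18 libraries, with the colour scale starting at 0.5. Off the diagonal, the lightest cells join GH17_28 with GH17_30 and GH17_5 with GH17_25, and the lowest value, 0.58, joins GH17_25 with GH17_28.

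The genes with the most similar profiles to the members lay mostly outside the candidate table and have no name in the files. For GH17_5 and GH17_25, PAV02g0115351 was among the 3 nearest of both, at r = 0.98 and 0.97. The nearest gene was PAV08g0400291 for GH17_3 (0.98), PAV01g0014871 for GH17_5 (0.98), PAV01g0048291 for GH17_9 (0.99) and PAV01g0057801 for GH17_19 (0.99). It was PAV05g0251281 for GH17_21 (0.97), PAV01g0038931 for GH17_25 (0.98), PAV05g0254701 for GH17_28 (0.98) and PAV03g0152611 for GH17_30 (0.98). The 1 gene of the candidate table among these 24 places was PECTIN_INHIB_like_14, the third nearest to GH17_28 (0.98). Within the callose lists, GH17_9 was nearest to PDCB5B (0.97), while GH17_28 and GH17_30 were both nearest to another GH17 gene, GH-17-like_1 (0.98 each).

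The summed level of the 8 genes was 314 ± 18.1 CPM on October 17, 191 ± 16.2 CPM on December 8, 115 ± 4.23 CPM on January 3, 154 ± 4.16 CPM on January 15, 225 ± 20.0 CPM on February 12 and 551 ± 15.3 CPM on March 12 (SD, n = 3 each). They made up 32.0% of all GH17 counts on October 17, 12.0% on January 3, 11.2% on February 12 and 29.2% on March 12. The total includes GH17_22, which had 15.6 CPM on October 17, 285 CPM on January 3, 1222 CPM on February 12 and 190 CPM on March 12. With GH17_22 left out of the total, a step chosen after its values were seen, the 8 genes held 32.5% on October 17, 17.1% on January 3, 26.7% on February 12 and 32.4% on March 12. The sum of the 8 genes rose from October 17 to March 12 at a like share, so the remaining GH17 counts rose as well.

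**Figure D5:**
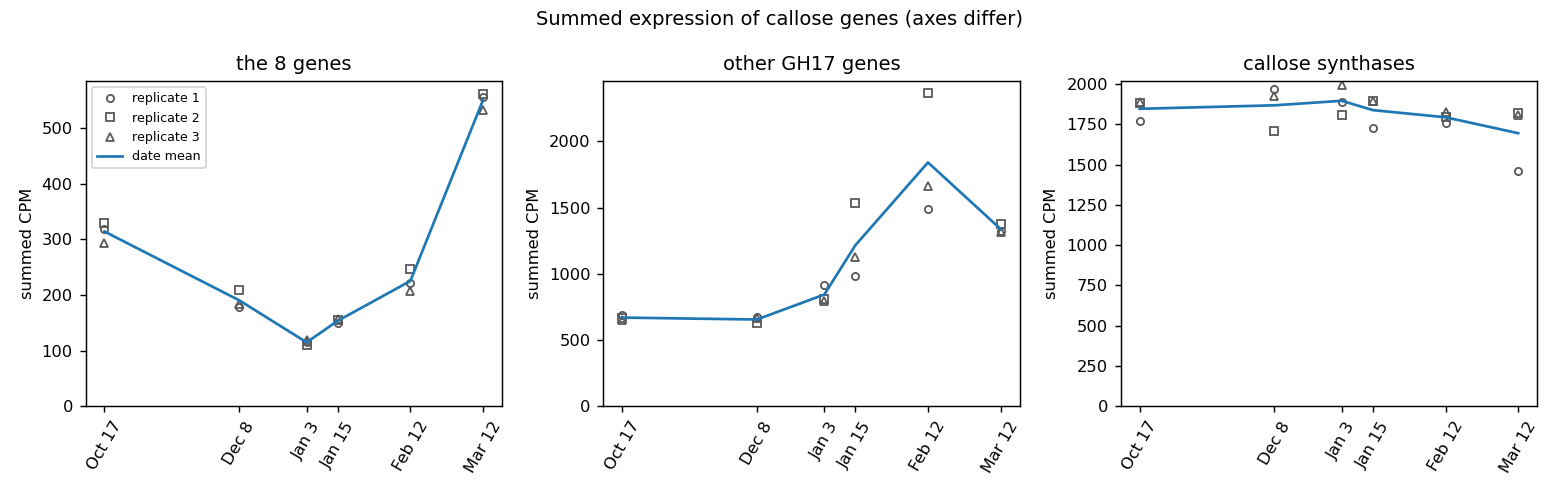
Summed CPM of the 8 genes, of the 34 other GH17 genes and of 31 callose synthases against sampling date, with 1 symbol per library and a line through the date means (axes start at 0 and differ). The 8 genes are lowest on January 3 (115 CPM), the other GH17 genes highest on February 12 (1841 CPM), and the date means of the callose synthases lie between 1695 and 1896 CPM. Most of the February sum of the other GH17 genes is 1 gene, GH17_22 (1222 CPM), and replicate 2 of that date lies highest (2368 CPM).

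Among the other callose genes of the candidate table, GH17 genes moved in both directions and at most 1 callose synthase was called in a comparison. Of 34 other GH17 genes, 25 were tested. On March 12 against October 17, 6 were called higher and 1 lower (13.2% and 7.73% of all genes). On January 3 against December 8, 2 were higher and 2 lower (6.33% and 4.05%). On January 15 against January 3, 1 was higher and 0 lower (2.91% and 1.49%). On February 12 against January 15, 4 were higher and 1 lower (7.10% and 3.90%). These shares apply to the lists below as well, and with so few genes nothing is read from the counts against them. GH17_22 rose at both January steps (log2 fold changes 3.13 and 1.26), and GH17_34 rose by February 12, to 102 ± 33.8 CPM, against 17.3 ± 5.09 CPM on January 15. In the same step GH17_10 fell by 1.10 on the log2 scale, and by January 3 GH17_31 fell by 1.35 against December 8, from counts of 13 or fewer per library. GH-17-like_2 held 23.3 ± 8.83 CPM on March 12, against 0.16 ± 0.15 CPM on October 17, where its libraries had 1, 1 and 5 counts, while GH17_29 was lower, at 16.2 ± 0.92 CPM on March 12, against 45.6 ± 1.24 CPM on October 17. Each of these was the largest called change of its list in that comparison.

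Of 31 callose synthases, 26 were tested, and edgeR and DESeq2 called none in 3 of the 4 comparisons. At adjusted p alone by edgeR, 1 was higher and 6 lower on March 12 against October 17 (28.4% and 25.1% of all genes). On January 3 against December 8, 7 were higher and 3 lower (21.8% and 15.6%). On January 15 against January 3, 2 were higher and 4 lower (11.8% and 13.6%). At an unadjusted p under 0.05 these counts were 2 higher and 9 lower, 8 higher and 4 lower, and 2 higher and 6 lower. CALS_1B was called lower on February 12, at 1.51 ± 0.25 CPM against 3.07 ± 0.47 CPM on January 15. This was just past the fold threshold (log2 fold change -1.02, SE 0.38, adjusted p = 0.0388 by edgeR). Its libraries had 25, 19 and 13 counts on February 12 and 40, 71 and 39 on January 15. In that step 2 callose synthases were higher and 8 lower at adjusted p alone (20.1% and 19.9% of all genes). At an unadjusted p under 0.05, 3 were higher and 10 lower. Of 5 PDCB genes tested, 3 were called higher on March 12 against October 17, led by PDCB5B at 467 ± 71.9 CPM on March 12, against 1.50 ± 0.17 CPM on October 17, and none was called by edgeR or DESeq2 at the other steps (at an unadjusted p under 0.05, 1 was lower on January 3, none moved on January 15 and 1 was lower on February 12). Of 7 PDLP genes tested, PDLP2 alone was called by edgeR in any of the 4 comparisons, and DESeq2 also called 1, at 76.2 ± 9.80 CPM on February 12, against 31.1 ± 5.92 CPM on January 15. At an unadjusted p under 0.05, 2 PDLP genes were higher and 1 lower on March 12 against October 17, 3 were lower on January 3 against December 8, and 1 was higher and 1 lower on January 15 against January 3. The share of all genes at an unadjusted p under 0.05 was not computed, so nothing is read from the list counts at that threshold. Whether any of these lists differs from the 8 genes was not tested.

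Buds with their base also hold vascular tissue. Of 24 xylem formation genes listed by the study, 18 were tested and 3 had no count in any library, and their summed level ranged over 695 to 752 CPM on October 17, 621 to 676 CPM on December 8, 616 to 641 CPM on January 3, 512 to 531 CPM on January 15, 574 to 596 CPM on February 12 and 694 to 711 CPM on March 12. The vascular sum was thus also lower in winter, but lowest on January 15 and by a smaller fraction than the 8 genes, and its part in their profile was not tested. No table at hand names floral organ genes among the counted IDs, so the labelled tissue was not checked against floral markers.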

How the data were processed

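RNA from whole flower buds was sequenced from stranded mRNA libraries (18 libraries, 6 dates, 3 replicates). The values are raw read counts per gene as deposited: the authors trimmed reads with Trimmomatic 0.36, aligned them with STAR to the 'Regina' genome and counted them with HTSeq, whose options and versions are not given in the sources used here. HTSeq usually leaves out reads that map to several places, so counts of near-identical family members are uncertain.

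Counts were analysed with edgeR 4.0.16 in R 4.3.3 (TMM, quasi-likelihood F test, 1 mean per date over all libraries, Benjamini-Hochberg adjustment). The filter asked for a mean count no lower than 3 and for no more than 75% of libraries at 0. The standard error is the absolute log2 fold change over the square root of F. CPM used the deposited totals with TMM factors, and correlations log2(CPM + 1). Tables and plots were made with Python 3.11.15, pandas 2.3.3, numpy 2.4.6 and matplotlib 3.10.9. On simulated data for March 12 against October 17 (26117 genes), 83 of 100 genes changed 3-fold and 97 of 100 changed 6-fold were recovered, with 6 false calls. The simulated counts followed the model's own distribution, with 1 mean per gene at all dates except for the changed genes, all raised on March 12. The real comparison has many genes moving in both directions, so these rates may not carry over to it.

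Named genes are the 8 members, the 3 genes nearest to each in profile (the first is printed, and others where shared or named), and the largest called change in each direction and comparison among GH17, callose synthase, PDCB and PDLP genes. Members and lists were chosen with earlier results of these data known. Alternatives were DESeq2 1.42.0 as test or for size factors, upper quartile or no scaling factors, 3 other filters, adjusted p alone, fits on the compared dates, a replicate block, and fits without each library in turn or without the 3 of lowest mapped share. Same-numbered replicates are not stated to share a tree, and p-values measure the spread between these samples. None of the 8 IDs matched the RefSeq gene table, so no coordinates are given.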

Additional observations from a re-analysis of the deposited data

How the results depend on the processing

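The counts of called genes kept within 1.5 times of the reported ones with DESeq2, with other scaling, with the 3 other filters and in fits on the compared dates. Deviations from the date mean correlated by -0.39 to 0.53 between same-numbered replicates (median 0.01, 7 of 45 pairs over 0.1). Between other numbers they correlated by -0.50 to 0.38 (median -0.01, 13 of 90 pairs over 0.1). No pairing by number was seen, but such correlations cannot exclude that same-numbered replicates share a tree. The replicate block gave the same counts: 4 higher on March 12 against October 17 and 2 lower on January 3 against December 8. It also gave 1 higher on January 15 against January 3 and 2 higher on February 12 against January 15. At adjusted p alone 7 genes were lower on January 3, 5 higher on January 15, and 4 higher and 1 lower on February 12. Without the 3 libraries of lowest mapped share, 0 were higher on January 15 and 1 on February 12. Leaving out each library gave 0 to 1 higher on January 15 (0 without replicate 2 of either January date) and 1 to 2 higher on February 12 (1 without its replicate 2). For 3 genes that did not pass, the log2 fold change changed sign in some of the fits that left out 1 library. GH17_21 on March 12 against October 17 ranged from -0.062 to 0.013 (positive without replicate 2 of either date). GH17_9 on January 15 against January 3 ranged from -0.0085 to 0.49 (negative without replicate 3 of January 15). GH17_30 on February 12 against January 15 ranged from -0.31 to 0.046 (positive without replicate 2 of February 12). It was 0.040 without the 3 libraries of lowest mapped share. The cause was not tested. GH17_19 crossed the fold threshold on March 12 (1.03 without replicate 2 of October 17) and on January 3 (-1.002 with no filter, -1.02 in the fit of the compared dates and -1.09 without replicate 3 of January 3). GH17_25 on January 15 was at 0.99 and GH17_5 on February 12 at 0.93 without the 3 libraries. Over all genes, 505 were called higher on January 15 without its replicate 2, against 765 with it. At adjusted p alone, GH17_5 on January 15 also passed with library totals (adjusted p = 0.0470), and GH17_19 on February 12 did not in the fit of the compared dates (0.0635). In proportion, the lowest winter mean moved most for GH17_25 (11.6% to 14.6% of October, 1.25 times) and least for GH17_28 (36.7% to 40.0%, 1.09 times). With 3 libraries a date, small steps may be missed, and the winter values of GH17_9 rest on 9 or fewer counts per library.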
